A study of Mus musculus with 1528 samples.

Results

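The 8 genes described here encode receptors for the colony-stimulating factors and for the cytokines that signal through gp130: *Csf1r*, *Csf2ra*, *Csf2rb*, *Csf2rb2*, *Csf3r*, *Lifr*, *Il6st* and *Il6ra*. They were chosen by symbol, with earlier results of these data known. Each symbol matched 1 Ensembl identifier of the 55421 genes in the table. The study addressed how TNF alters the response of macrophages to IL4 and IL13. Macrophages were grown from the marrow of 2 C57BL/6 wild-type mice (BMDMs) and received IL4 and IL13 for 24 h, in 1 of the groups together with TNF (IL4+IL13+TNF). The dose of each cytokine was 10 ng/ml. All cells had been grown in M-CSF, the ligand of the *Csf1r* product, and the design holds no unstimulated group and no group with TNF alone. Live cells were sorted singly into 384-well plates and made into Smart-seq2 libraries, which cover whole transcripts and carry no molecular identifiers.

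Mouse 1 filled plates 2 and 3 and mouse 2 filled plates 4 and 5, so that a mouse and its pair of plates cannot be told apart. The paper describes the single-cell data as coming from independent experiments. If each mouse was an experiment of its own, its culture and stimulation cannot be told apart from the animal either. Every plate held both treatments in separate blocks of rows, so that position on the plate and treatment cannot be told apart either. Of 1524 wells, 1386 were kept: in mouse 1, 357 cells without and 347 with TNF, and in mouse 2, 333 without and 349 with it. A kept cell held a median of 472319 fragments. The macrophage label fitted the markers, since 7 of 7 macrophage genes exceeded 1 CPM (counts scaled to a common library total) in each of the 4 sums of cells by mouse and treatment, and *Adgre1* was found in 99.4% to 100% of cells. In contrast, 6 of 6 lymphocyte genes and 6 of 6 stromal and endothelial genes stayed under 1 CPM in every sum. The summed macrophage list was higher with TNF (27362 and 25894 CPM in mice 1 and 2, against 14312 and 15435 CPM), and *Lyz2* supplied most of this level. The other 6 genes of the list were each lower with TNF in both mice, among them *Mertk* (13.8 and 32.4, then 6.41 and 13.4 CPM). A list of 5 dendritic cell genes was at 8.36 and 12.3 CPM without TNF and at 31.1 and 208 CPM with it, mainly through *Ccr7* (0.110 and 0.432, then 21.4 and 194 CPM), and its part in the results was not tested. As checks of the treatment, *Clec4e*, *Nfkbia* and *Tnfaip3* were higher with TNF by 5.09, 1.97 and 2.37 on the log2 scale, and *Retnla* was lower by a log2 fold change of −4.62 (−2.84 without the IL4+IL13 sum of mouse 2), of which *Clec4e* passed the test with treatment as the only term (edgeR adjusted p = 0.0204) and all 4 under the mouse block (adjusted p up to 0.0350).

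CSF1R is a receptor tyrosine kinase that binds CSF1 (M-CSF) and IL34, and macrophages depend on it for survival. The other receptors lack a kinase domain and signal through JAK kinases and STAT factors. CSF2RA binds GM-CSF and pairs with the common beta chain CSF2RB, which the IL3 and IL5 receptors share, while the second beta chain of the mouse, CSF2RB2, serves IL3. CSF3R binds G-CSF and is best known from neutrophils. IL6ST (gp130) is the signalling chain that joins IL6RA to answer IL6 and LIFR to answer LIF.

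Upstream sequence of RefSeq (GRCm38.p6) was at hand for 6 of the 8 genes, and none was at hand for *Csf1r* and *Csf2rb*. The 250 bases before the start site are shown for a beta chain gene and for both chains of the IL6 receptor, because the first was higher and the other 2 were lower with TNF. Capitals mark matches, on either strand, to the PU.1 core GAGGAA or to the STAT pattern TTCNNNGAA.
*Csf2rb2* (chr15:78305722-78305971, minus strand): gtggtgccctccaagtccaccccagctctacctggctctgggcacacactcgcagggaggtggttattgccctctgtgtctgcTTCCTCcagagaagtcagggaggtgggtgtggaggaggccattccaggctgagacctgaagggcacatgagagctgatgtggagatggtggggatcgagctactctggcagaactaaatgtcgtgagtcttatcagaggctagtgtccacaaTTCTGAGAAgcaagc
*Il6st* (chr13:112463820-112464069, plus strand): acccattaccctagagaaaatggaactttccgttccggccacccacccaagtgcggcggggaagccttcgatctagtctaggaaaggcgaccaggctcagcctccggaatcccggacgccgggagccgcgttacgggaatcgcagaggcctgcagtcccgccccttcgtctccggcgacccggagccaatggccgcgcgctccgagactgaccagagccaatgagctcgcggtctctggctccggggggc
*Il6ra* (chr3:89913197-89913446, minus strand): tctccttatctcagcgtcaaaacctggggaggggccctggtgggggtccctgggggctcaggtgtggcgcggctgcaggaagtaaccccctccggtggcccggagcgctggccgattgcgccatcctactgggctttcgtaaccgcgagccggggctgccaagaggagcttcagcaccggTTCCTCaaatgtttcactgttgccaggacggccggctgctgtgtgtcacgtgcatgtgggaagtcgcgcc
The *Csf2rb2* stretch held 1 STAT match and 1 PU.1 core match, that of *Il6ra* held 1 PU.1 core match, and that of *Il6st* held none. The STAT pattern occurred in 7.02% and the PU.1 core in 23.2% of the 32851 promoters of the same length. The NF-kB pattern (GGG and TTTCC with 2 bases of any kind between them) and TGANTCA (AP-1), which occurred in 1.41% and 6.75% of these promoters, matched none of the 7 listed upstream stretches of the 6 genes. Of the listed stretches, 2 are of *Lifr*, with start sites 38958 and 49928 bases inside the gene span given below. The start site of the *Csf3r* stretch lies 109 bases inside its span. Whether these starts were used in the cells was not tested. The *Csf2ra* stretch held 2 adjoining PU.1 core matches and that of *Csf3r* held 1. These matches are descriptions of the letters only.

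The genes lie at 7 separate places of mm10. *Csf1r* spans chromosome 18 from 61100598 to 61132149 on the plus strand. *Csf2ra* lies on chromosome 19 from 61223957 to 61228429 on the minus strand. The beta chain genes are neighbours on chromosome 15, with *Csf2rb2* at 78282507 to 78305721 on the minus strand and *Csf2rb* at 78325752 to 78353847 on the plus strand. *Lifr* is on the same chromosome from 7090614 to 7197489 on the plus strand. *Csf3r* lies on chromosome 4 (126024550 to 126044440, plus strand), *Il6st* on chromosome 13 (112464070 to 112510086, plus strand) and *Il6ra* on chromosome 3 (89864059 to 89913196, minus strand). The counting did not use the strand, and 15.1% of the exon bases of *Csf1r* are shared with exons of the opposite-strand gene *Hmgxb3*. For *Il6ra* the share is 2.80%, with *Gm42809*. *Csf2rb* and *Csf2rb2* are near-identical in places: of all 50-base words of their transcripts, 12.3% of those of *Csf2rb* and 18.4% of those of *Csf2rb2* occur in both genes, so that reads of 50 bases from these stretches could not be assigned to 1 of them, and the 2 levels carry that uncertainty.

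*Csf1r* was the most abundant of the receptor mRNAs, and its level overlapped between the treatments. With IL4+IL13 its level was 830 CPM in mouse 1 and 1269 CPM in mouse 2, and TNF-treated cells held 1063 and 1348 CPM. Mouse 2 was the higher animal under both. On single plates *Csf1r* went from 830 to 1099 CPM (plate 2), from 822 to 1029 CPM (plate 3), from 1203 to 1360 CPM (plate 4) and from 1359 to 1334 CPM (plate 5). It was higher with TNF on 3 of 4 plates. The log2 fold change was 0.20 (SE 0.25, edgeR adjusted p = 0.930) with treatment as the only term, and 0.22 (SE 0.10, adjusted p = 0.271) with the mouse as a block. Within mouse 1 the log2 fold change was 0.36, and within mouse 2 it was 0.087. Without the IL4+IL13 sum of mouse 1 the treatment-only value was −0.080. That fit sets mouse 2 alone against the TNF sums of both mice, so it mixes the difference between the mice with the response.

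*Csf2ra*, *Csf2rb* and *Csf2rb2* were each higher with TNF in both mice, as 34.3% of tested genes were, while 32.4% were lower in both. *Csf2ra*, the GM-CSF binding chain, was at 128 and 167 CPM with IL4+IL13 and at 255 CPM in each mouse with TNF. By plate it went from 122 to 236, from 133 to 269, from 175 to 265 and from 160 to 245 CPM, and the 4 plate values of one treatment did not overlap those of the other, which 6.16% of genes showed in this direction and 5.17% in the opposite one. *Csf2rb* was at 123 and 324 CPM with IL4+IL13 and at 360 and 509 CPM with TNF. Here the mice stood far apart, since mouse 2 with IL4+IL13 (356 and 291 CPM on its plates) reached the level of mouse 1 with TNF (352 and 366 CPM). *Csf2rb2* was at 91.5 and 186 CPM with IL4+IL13 and at 192 and 286 CPM with TNF, and its plates ran from 91.0 to 188 CPM and from 175 to 315 CPM. The plot of each receptor on each plate shows the steps from lower bases in mouse 1 and higher bases in mouse 2.

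**Figure D1:**
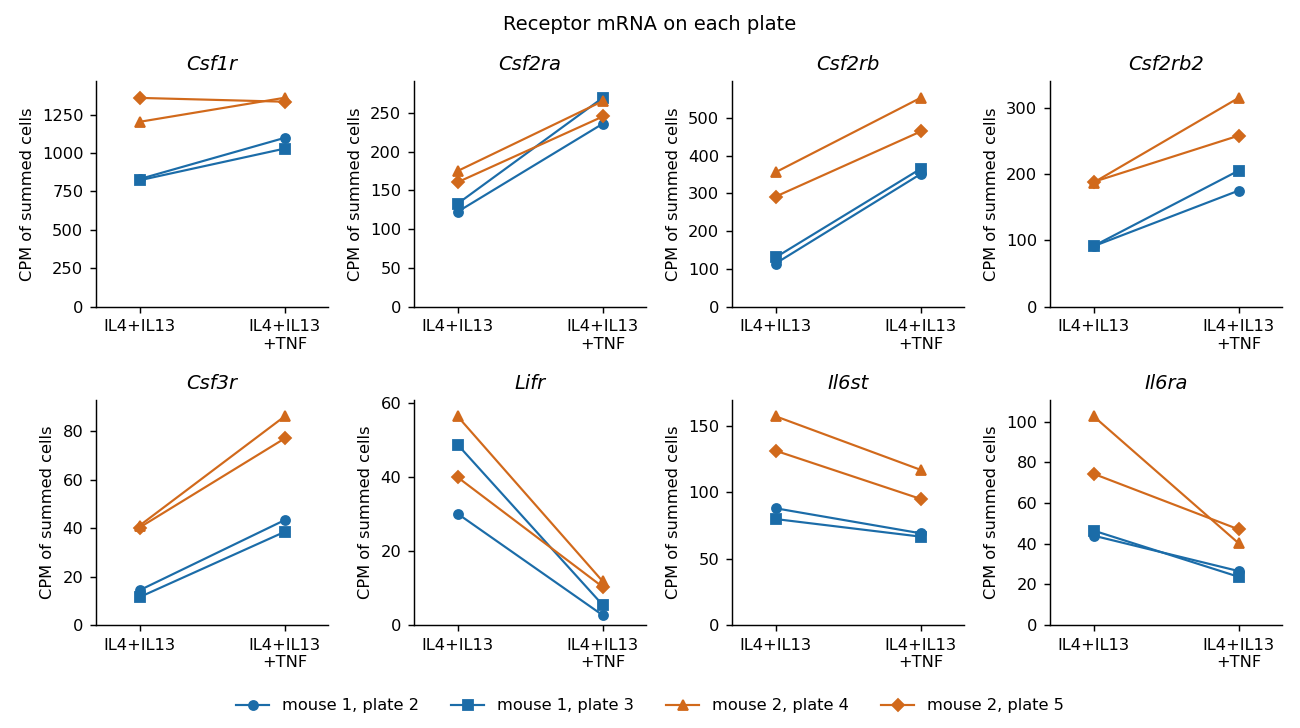
CPM of the summed cells of each plate (vertical axis, from 0) for the 8 receptor genes under IL4+IL13 and under IL4+IL13+TNF; lines join the treatments of 1 plate, blue for mouse 1 (plates 2 and 3) and orange for mouse 2 (plates 4 and 5). *Csf2ra*, *Csf2rb*, *Csf2rb2* and *Csf3r* were higher and *Lifr*, *Il6st* and *Il6ra* lower with TNF on 4 of 4 plates, while *Csf1r* was higher on 3 of 4.

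Across all genes tested, 18.7% were higher and 16.8% lower with TNF on 4 of 4 plates, so that agreement of the plates in direction alone was common.

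With treatment as the only term, none of these 3 chains passed the test: the log2 fold changes were 0.79 (SE 0.19, adjusted p = 0.368) for *Csf2ra*, 0.96 (SE 0.49, adjusted p = 0.722) for *Csf2rb* and 0.78 (SE 0.40, adjusted p = 0.725) for *Csf2rb2*. With the mouse as a block, *Csf2ra* rose 1.75-fold (log2 0.80, SE 0.13, adjusted p = 0.0408) and *Csf2rb2* rose 1.80-fold (log2 0.85, SE 0.14, adjusted p = 0.0445). *Csf2rb* had the larger fold change, 1.10 on the log2 scale, and the larger error (SE 0.22), and stayed outside the threshold (adjusted p = 0.0659). In the fit on plate sums with the mouse as a block, in which the plates of 1 mouse are not independent animals, all 3 were called (adjusted p = 0.00159, 0.00653 and 0.00277). The blocked calls of *Csf2ra* and *Csf2rb2* were lost with library size in place of TMM (adjusted p = 0.0553 and 0.0582) and without a gene filter (adjusted p = 0.0915 and 0.0957).

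*Csf3r* was a rarer transcript whose level was higher with TNF in each mouse. It was at 12.9 and 40.4 CPM with IL4+IL13 and at 40.7 and 81.6 CPM with TNF. Its plates went from 14.3 to 43.3, from 11.5 to 38.5, from 41.0 to 86.1 and from 40.2 to 77.0 CPM. The treatments did not overlap over the 4 sums, but by a narrow gap, as mouse 2 with IL4+IL13 lay just under mouse 1 with TNF. The log2 fold change was 1.198 (SE 0.63, adjusted p = 0.739) with treatment only. With the mouse as a block *Csf3r* rose 2.52-fold (log2 1.33, SE 0.19, adjusted p = 0.0295), the highest of the 8 genes. This call was lost without a gene filter (adjusted p = 0.0569), and with treatment only the log2 fold change was 0.59 or 2.24 without the IL4+IL13 sum of mouse 1 or mouse 2. Of 8 genes of neutrophils and their precursors, 6 stayed under 1 CPM in every sum, *Elane* reached at most 0.00569 CPM, and the summed list was at 6.95 and 12.2 CPM with IL4+IL13 and at 13.5 CPM in each mouse with TNF. The list did not go one way: *Mmp8*, its most abundant gene, went from 5.93 to 11.7 CPM in mouse 1 and from 10.01 to 8.05 CPM in mouse 2. With TNF, *Mpo* was lower in mouse 1 and *Ly6g* in mouse 2, both near 0.068 CPM or less in every sum. *S100a8* and *S100a9* were higher with TNF in both mice, as *Csf3r* was. *S100a8* went from 0.916 and 1.86 CPM to 1.66 and 4.46 CPM. It was found in 1.68% and 15.3% of cells with IL4+IL13 and in 5.76% and 35.0% with TNF. *S100a9* went from 0.0165 and 0.243 CPM to 0.090 and 0.887 CPM, and from 0.560% and 8.71% of cells to 3.75% and 20.9%. With the 10 to 15 cells per sum that held more than 100 CPM of this list left out, *Csf3r* (scaled by library size, without TMM) was at 13.3, 42.0, 39.2 and 81.6 CPM, against 13.2, 42.1, 39.0 and 79.8 CPM with them.

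*Lifr* moved the other way and furthest. It was at 39.9 and 48.4 CPM with IL4+IL13 and at 4.18 and 11.03 CPM with TNF. By plate it went from 30.1 to 2.63, from 48.8 to 5.39, from 56.5 to 11.8 and from 40.0 to 10.3 CPM. The highest plate with TNF lay below the lowest plate without it. The log2 fold change was −2.54 (SE 0.51, adjusted p = 0.287) with treatment only and −2.69 (SE 0.30, adjusted p = 0.0183) with the mouse as a block, a level 6.43-fold lower. DESeq2 called it without the block too (adjusted p = 5.21e-06), and it was the only member that DESeq2 called without the block.

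The chains of the IL6 receptor were lower with TNF as well. *Il6ra*, the ligand-binding chain, was at 45.4 and 88.7 CPM with IL4+IL13 and at 24.9 and 43.6 CPM with TNF, and it was lower on each plate (43.9 to 26.5, 46.4 to 23.7, 103 to 40.1 and 74.3 to 47.0 CPM). Its log2 fold change was −0.97 (SE 0.43, adjusted p = 0.675) with treatment only. With the mouse as a block it fell by 0.94 on the log2 scale (SE 0.12, adjusted p = 0.0255), a level 1.92-fold lower. *Il6st* was at 84.3 and 144 CPM with IL4+IL13 and at 67.9 and 106 CPM with TNF. It was lower on 4 of 4 plates by log2 values between −0.26 and −0.47, but mouse 1 without TNF lay below mouse 2 with TNF. Its log2 fold change was −0.39 (SE 0.35, adjusted p = 0.885) with treatment only and −0.38 (SE 0.11, adjusted p = 0.136) with the block, and it became 0.047 without the IL4+IL13 sum of mouse 2. The fit on plate sums called *Il6st* (adjusted p = 0.0471).

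Of the 8 receptors, 0 passed the test with treatment as the only term, in which 1 of 17034 genes was called (*Clec4e*, 0.00587% of genes; 1380 genes had an unadjusted p under 0.05). With the mouse as a block 5 of 8 passed, 3 higher (*Csf2ra*, *Csf2rb2* and *Csf3r*) and 2 lower (*Lifr* and *Il6ra*), against 3.82% of all genes, 1.94% called higher and 1.88% called lower. DESeq2 without the block called 1 member, and the fit on plate sums called 7 (all but *Csf1r*, adjusted p = 0.1004), where 10.4% of genes were called, 5.1% higher and 5.3% lower. Over the 4 sums, 6 of 8 members (all but *Csf1r* and *Il6st*) did not overlap between the treatments, beside 36.4% of all genes, 18.6% higher and 17.9% lower. The median log2 fold change of the 8 was 0.49 with treatment only and 0.51 with the block, beside 0.0038 and 0.011 over all genes tested. The members were chosen with earlier results of these data known, so these counts and medians do not test the list. When only the adjoining rows E to H (IL4+IL13) and I to L (IL4+IL13+TNF) were kept, the blocked fit called 0 of 8 members, with adjusted p from 0.0752 for *Lifr* upwards, and 31 genes in all. The log2 fold changes of the 5 genes in these rows were 0.88, 0.99, 1.504, −2.57 and −1.07. In blocks of 4 rows on each plate, *Lifr* ran from 27.1 to 62.5 CPM without TNF and from 1.799 to 12.97 CPM with it, whereas the other 4 genes overlapped (*Csf2ra*, 112 to 209.5 and 202 to 284 CPM, scaled by library size).

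**Figure D2:**
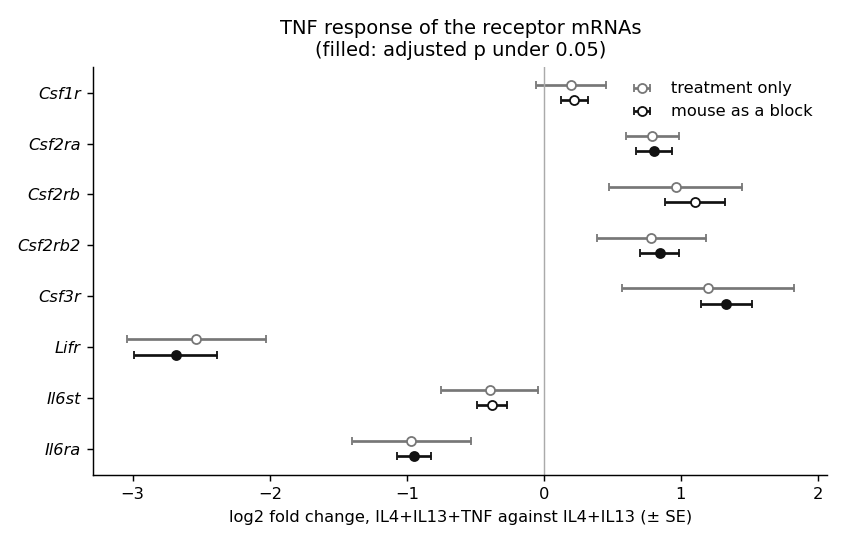
Log2 fold change of each receptor gene with IL4+IL13+TNF against IL4+IL13 (horizontal axis), with bars of ± 1 SE, from edgeR with treatment only (grey) and with the mouse as a block (black), n = 2 mice per treatment; filled points have an adjusted p under 0.05. The 2 fits give nearly the same fold changes, with smaller errors under the block, where *Csf2ra*, *Csf2rb2*, *Csf3r*, *Lifr* and *Il6ra* are filled.

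The mice stood apart for several receptors. Each such gap is also a gap between pairs of plates and possibly between experiments, and which of these gave it was not tested. With IL4+IL13, mouse 2 exceeded mouse 1 by 3.12-fold for *Csf3r*, 2.63-fold for *Csf2rb*, 2.04-fold for *Csf2rb2* and 1.96-fold for *Il6ra*, and by 1.21-fold for *Lifr*. With TNF the ratio was 2.64 for *Lifr*, 2.00 for *Csf3r*, 1.41 for *Csf2rb* and 1.00 for *Csf2ra*. Among the 8 genes, *Csf2rb* had the lowest p for a difference in response between the animals: its plates gave log2 fold changes of 1.62 and 1.49 in mouse 1 and of 0.64 and 0.67 in mouse 2. The difference was −0.90 (SE 0.19) with an unadjusted p of 0.00143, yet the adjusted p was 0.638 (edgeR test of the interaction). This test called 0 of 17034 genes (1033 had an unadjusted p under 0.05). The other 7 members had an adjusted p of at least 0.764 in this test. It was fitted on plate sums, so its error is the spread between plates of 1 mouse. With 1 animal on each side it cannot decide whether animals differ in their response.

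Levels of the receptors were compared with each other per kilobase of exon (RPKM). With IL4+IL13, *Csf1r* stood first at 182 RPKM (SD 53.8, n = 2 mice), followed by *Csf2ra* at 51.4 (SD 9.59), *Csf2rb* at 30.7 (SD 19.5) and *Csf2rb2* at 29.3 RPKM (SD 14.1). Below these were *Il6st* at 10.3 (SD 3.83), *Il6ra* at 7.76 (SD 3.55), *Csf3r* at 7.39 (SD 5.38) and *Lifr* at 4.10 RPKM (SD 0.561). The ranges of the 2 mice overlapped between *Csf2rb* and *Csf2rb2*, and between each neighbouring pair from *Il6st* down to *Lifr*. With TNF, *Csf1r* was at 209 (SD 34.9), *Csf2ra* at 88.9 (SD 0.0153), *Csf2rb* at 59.7 (SD 14.4) and *Csf2rb2* at 50.5 RPKM (SD 14.01). Next came *Csf3r* at 16.9 RPKM (SD 8.01), above *Il6st* at 7.83 (SD 2.42), *Il6ra* at 3.97 (SD 1.53) and *Lifr* at 0.706 RPKM (SD 0.450), and only *Csf2rb* and *Csf2rb2* overlapped. In this order *Csf1r* exceeded 97.0% to 98.2% of all tested genes, whereas *Lifr* exceeded 51.3% and 54.8% without TNF and 13.8% and 26.4% with it.

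Shares of cells were compared after thinning each cell to 339000 fragments, which left 1250 cells, 332 and 309 of them without TNF and 303 and 306 with it. Fragments of *Csf1r* were found in 100% of cells in 3 of the 4 groups and in 305 of 306 cells in the other. *Csf2ra* was found in 95.4% of cells (SD 1.09, n = 2 mice) with IL4+IL13 and in 99.3% (SD 0.460) with TNF. For *Csf2rb* the shares were 92.1% (SD 6.21) and 99.2% (SD 0.238), and for *Csf2rb2* they were 83.4% (SD 8.42) and 94.7% (SD 2.82). *Csf2ra* with at least 1 beta chain gene was found in 89.8% and 95.1% of cells with IL4+IL13 and in 99.7% and 99.0% with TNF. This count includes cells with *Csf2rb2*, the chain that serves IL3, as the only beta chain gene. *Csf2ra* with *Csf2rb*, the GM-CSF pair, was found in 82.8% of cells from mouse 1 with IL4+IL13. The mean of this pair over the 4 groups was 93.2%.

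The rarer receptors divided the cells. *Csf3r* with IL4+IL13 was found in 26.5% (95% exact interval 21.8 to 31.6) of the cells from mouse 1 and in 51.5% (45.7 to 57.1) from mouse 2, and in 57.1% (51.3 to 62.7) and 65.4% (59.7 to 70.7) with TNF. *Lifr* was found in 45.8% (40.3 to 51.3) and 51.5% (45.7 to 57.1) of cells with IL4+IL13 and in 15.2% (11.3 to 19.7) and 23.2% (18.6 to 28.3) with TNF. With at least 5 fragments required, *Lifr* was found in 31.6% and 33.3% of cells without TNF and in 7.26% and 10.8% with it. The difference at 1 fragment for *Lifr* was −30.6 and −28.3 percentage points in the 2 mice, and that for *Csf3r* was 30.6 and 13.9 points. *Il6ra* was found in 69.6% and 87.1% of cells and then in 56.8% and 70.3%, and *Il6st* in 86.1% and 92.9% and then in 78.9% and 88.6%. Transcripts that macrophages should lack (*Cd3e*, *Cd79a*, *Col1a1* and *Cdh5*) were found in means of 0.485% to 3.95% of cells at the same depth, below every receptor. Intervals cover counting error only, and no p is given for shares, since 2 mice against 2 cannot give less than 0.333 in an exact permutation test. Before thinning, *Lifr* was found in 51.0% and 54.7% of cells and with TNF in 16.7% and 27.2%.

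**Figure D3:**
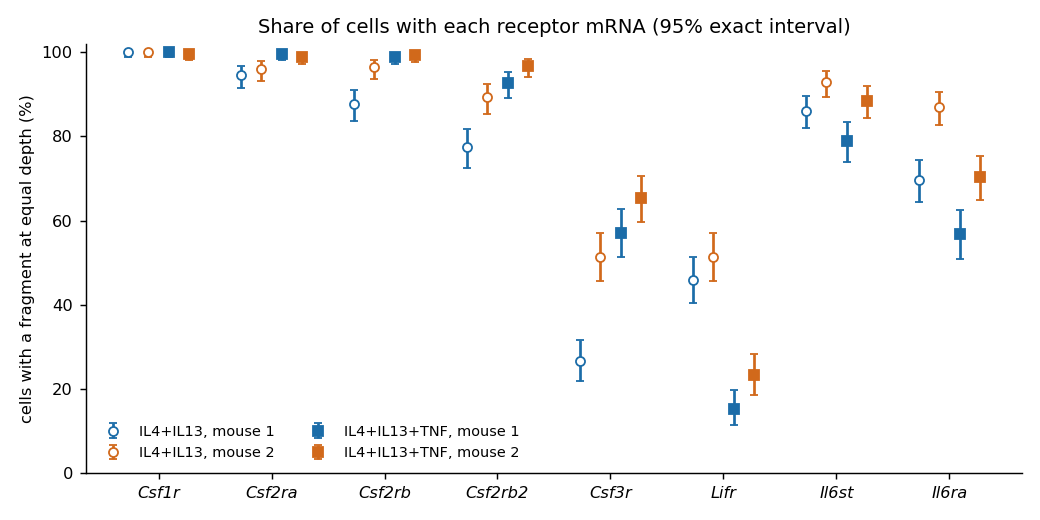
Percentage of equally deep cells in which each receptor gene was found (vertical axis, percent), for each mouse (blue, mouse 1; orange, mouse 2) with IL4+IL13 (open circles) and IL4+IL13+TNF (filled squares); bars are 95% exact intervals. *Csf3r* is higher and *Lifr* lower with TNF in both mice, with the intervals of a mouse's 2 treatments apart.

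Combinations of receptors differed between the treatments along with their rarer chain. *Il6ra* together with *Il6st*, the pair that answers IL6, was found in 62.3% and 81.6% of cells with IL4+IL13 and in 46.5% and 62.1% with TNF. *Lifr* together with *Il6st* was found in 38.6% and 47.9% without TNF and then in 10.9% and 20.9%. Cells with *Lifr* but no *Csf3r* made up 31.3% and 23.6% with IL4+IL13 and 5.61% and 5.88% with TNF, whereas cells with *Csf3r* but no *Lifr* made up 12.05% and 23.6% and then 47.5% and 48.0%. The median cell held 6 or 7 of the 8 transcripts with IL4+IL13 and 6 with TNF. All 8 together were found in 6.93% and 18.4% of cells with IL4+IL13 and in 3.96% and 10.1% with TNF.

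The level was spread over the cells most evenly for *Csf1r*. The 5% of kept cells with the most *Csf1r* held 10.3% to 11.9% of its summed CPM in the 4 groups, the nearest of the 8 genes to the 5% of an even spread. For *Lifr* the top 5% of cells held 38.5% and 42.0% of the CPM with IL4+IL13 and 81.1% and 75.03% with TNF. The median cell of either mouse was at 1.62 and 1.86 CPM of *Lifr* with IL4+IL13 and at 0 with TNF, while single cells with TNF reached 116 and 298 CPM. *Csf3r* went the other way, as its top 5% held 49.8% and 39.3% of the CPM with IL4+IL13 and 33.5% and 29.3% with TNF. In summed cells, a lower level per cell and fewer cells with the transcript add to the same sum, and for *Lifr* and *Csf3r* both the sums and the shares differed.

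**Figure D4:**
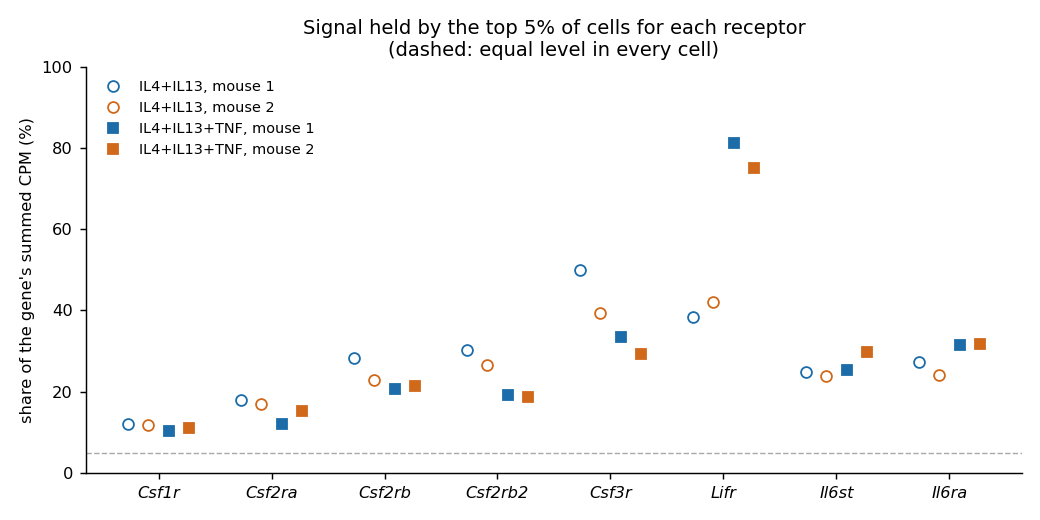
Share of each receptor gene's summed CPM held by the 5% of cells with the most of it (vertical axis, percent), per mouse and treatment; the dashed line at 5% is an equal level in every cell. *Lifr* with TNF lies at 75.03% and 81.1%, above all other points, and *Csf1r* lies near 11% in the 4 groups.

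Across cells at equal depth, *Csf2rb* and *Csf2rb2* went together: the Spearman correlation had a mean of 0.53 over the 4 groups by mouse and treatment (0.35 to 0.65) and ran from 0.30 to 0.68 on plates by treatment. These genes share 50-base words, as given above, and all counts of a cell share its library. *Il6st* followed with both beta chain genes (mean 0.21 with *Csf2rb2* and 0.20 with *Csf2rb*), and *Csf2ra* did so more weakly (0.18 and 0.16). *Lifr* was inverse to *Csf2rb2* in all 4 groups (mean −0.18, from −0.24 to −0.12). The same held for *Csf2rb* (mean −0.12, from −0.18 to −0.082), *Csf2ra* (mean −0.12, from −0.17 to −0.039) and, more weakly, *Il6st*. *Il6ra* and *Il6st*, partners in the IL6 receptor, had a mean of 0.041, and *Lifr* and *Il6st* had −0.071. Among the 28 pairs, those not named here had means between −0.12 and 0.12.

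**Figure D5:**
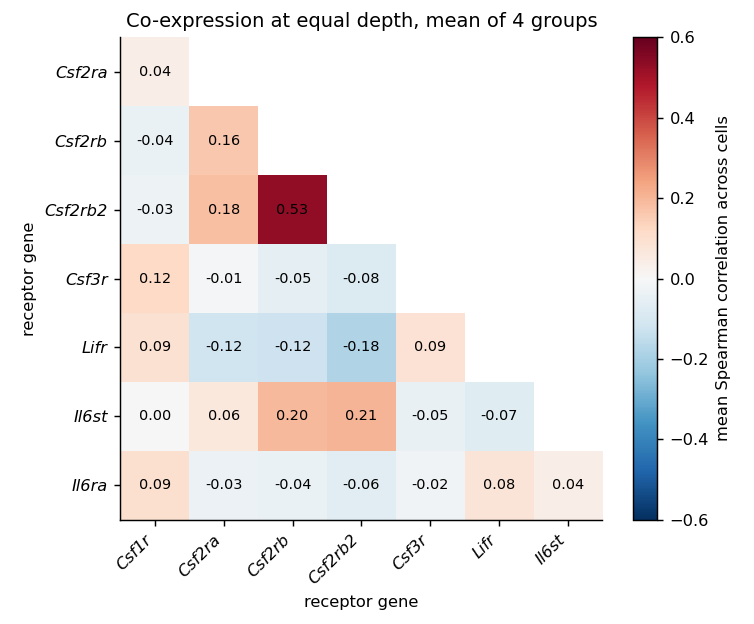
Mean Spearman correlation across cells of each pair of receptor genes (colour and number), over the 4 groups by mouse and treatment, in counts thinned to 1 depth. The pair *Csf2rb* and *Csf2rb2* stands at 0.53, and every other pair lies between −0.18 and 0.21.

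The genes most like each receptor were sought among 9007 genes detected in 25% or more of cells in each group, which left out *Lifr* as a query. Beside each other, *Csf2rb* and *Csf2rb2* were most like *Anxa1* (0.47 and 0.50), which encodes annexin A1. *Csf2rb* was next like *Itgb2*, the beta chain of the leukocyte integrins (0.41), and *Csf2rb2* like *Il7r* (0.42). *Csf2ra* was most like *Itgb2* (0.26), *Lpl* (0.26) and *Anxa1* (0.25). *Csf1r* was most like *P2ry6* (0.30), *C1qb* (0.29) and *Itm2b* (0.28), *Csf3r* like *Fcgr2b* (0.19), *Rnase4* (0.18) and *Igf1* (0.16), and *Il6ra* like *Mrc1* (0.17), *Fcgr2b* (0.15) and *Marcks* (0.15). *Il6st* was most like the beta chain genes and then *Etv3* (0.18). For each receptor, 95% of the genes compared had a mean of at most 0.0833.

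Receptors also stood apart along the states of the cells. The score of the C1q genes correlated with *Csf1r* (mean 0.26, 0.10 to 0.36) and inversely with *Csf2rb* (−0.31, −0.49 to −0.18) and *Csf2rb2* (−0.24). The lipid-associated genes *Gpnmb*, *Fabp4*, *Lpl* and *Trem2* correlated with *Csf2rb2* (0.28, 0.25 to 0.36) and inversely with *Lifr* (−0.24, −0.36 to −0.12). MHC class II genes correlated with *Csf2rb* (0.28, 0.14 to 0.51) and less with *Csf2rb2* (0.086, −0.045 to 0.29). Cycling genes were inverse to both beta chain genes (−0.23 and −0.22). The 4 groups gave the same sign for each of these values except that of MHC class II with *Csf2rb2*.

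Of the ligands, few were transcribed by these cells. Of 6 CSF-family ligands only *Csf1* passed the filter on low values, and the transcripts of *Il34*, *Csf2*, *Csf3*, *Il3* and *Il5* reached at most 0.154 CPM in any sum. *Csf1* was at 1.87 and 11.8 CPM with IL4+IL13 and at 10.03 and 16.6 CPM with TNF (log2 fold change 0.97, SE 0.86, adjusted p = 0.883, and 0.179 with the block). Without the IL4+IL13 sum of mouse 1 or mouse 2 this fold change was 0.17 or 2.84. Of 9 gp130-family ligands 3 passed. *Il6* was at 0.439 and 0.207 CPM with IL4+IL13 and at 7.98 and 15.01 CPM with TNF, and rose with the mouse as a block (log2 fold change 5.13, SE 0.57, adjusted p = 0.0182, against 0.155 with treatment only). It was found in a mean of 3.10% of cells (SD 0.725) with IL4+IL13 and of 5.57% (SD 2.75) with TNF, beside 1.76% and 3.95% for *Col1a1*, a transcript that macrophages should lack. The share of *Il6* was 3.61% without and 3.63% with TNF in mouse 1, and 2.59% and 7.52% in mouse 2. At least 5 fragments of *Il6* were found in 4 of 332 and 0 of 309 cells without TNF. With TNF, 7 of 303 and 10 of 306 cells held as many. *Osm* (13.4 and 5.67 CPM, then 14.2 and 6.77 CPM) and *Ebi3* (30.2 and 29.0 CPM, then 30.7 and 26.3 CPM) did not pass in either fit. The 2 ligand lists had 0 genes called with treatment only and 1 with the block, beside 0.00587% and 3.82% of all genes tested. The lists here and below were chosen with earlier results of these data known, so such counts and medians do not test them.

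Of 6 partner receptors 3 passed the filter, and *Osmr*, *Il5ra* and *Cntfr* stayed under it. *Il11ra1*, the IL11 binding chain, was at 58.5 and 58.9 CPM with IL4+IL13 and at 117 and 100 CPM with TNF, and it rose with the block (log2 fold change 0.88, SE 0.12, adjusted p = 0.0279, against 0.290 with treatment only). *Il27ra*, which joins gp130 to answer IL27, was at 3.06 and 4.09 CPM and then at 16.97 and 9.66 CPM (log2 fold change 1.90, adjusted p = 0.301, and 0.0609 with the block). *Il3ra*, the partner of the beta chains for IL3, was at 20.04 and 21.9 CPM and then at 17.8 and 18.5 CPM (adjusted p = 0.901 and 0.521). Hence 1 of 3 was called with the block and 0 of 3 with treatment only, beside 3.82% and 0.00587% of all genes tested.

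Downstream, 3 of 13 JAK-STAT and feedback genes were called with the block, each higher, and 0 of 13 with treatment only. Of all genes tested, 1.94% were called higher with the block and 0.00587% with treatment only. *Socs2*, a feedback inhibitor, went from 1.78 and 2.11 CPM to 11.5 and 25.04 CPM (log2 fold change 3.13, SE 0.30, adjusted p = 0.0135 with the block). *Cish*, another feedback inhibitor of STAT5 signals, went from 1.21 and 2.82 CPM to 7.35 and 12.01 CPM (log2 fold change 2.34, adjusted p = 0.0193). *Jak2*, the kinase of the GM-CSF receptor, went from 26.6 and 46.96 CPM to 46.9 and 105 CPM (log2 fold change 0.99, adjusted p = 0.0295), and its treatments overlapped. In contrast, *Stat3* (72.6 and 108 CPM, then 57.9 and 100 CPM) and *Stat5b* (30.1 and 29.6 CPM, then 18.6 and 27.3 CPM) were the lowest of the list among genes with 1 sign in both mice, with blocked log2 fold changes of −0.21 and −0.41 (adjusted p = 0.379 and 0.300). The median of the 13 was 0.23 with the block, beside 0.011 over all genes tested.

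Of 11 genes of CSF1R signalling and receptor shedding, 2 were higher and 1 lower with the block, and 0 passed with treatment only. The block called 1.94% of all genes tested higher and 1.88% lower. *Adam17*, a sheddase that cleaves CSF1R and IL6RA from the cell surface, went from 131 and 221 CPM to 403 and 420 CPM (log2 fold change 1.27, SE 0.18, adjusted p = 0.0302 with the block). *Rhbdf2*, which encodes the ADAM17 partner iRhom2, went from 41.8 and 63.4 CPM to 78.1 and 96.5 CPM (0.76, adjusted p = 0.0480). *Ccnd1*, a target of growth factor signals, went from 36.04 and 7.24 CPM to 16.1 and 2.33 CPM (−1.39, adjusted p = 0.0323). *Egr2* (blocked log2 fold change 0.86, adjusted p = 0.151) and *Egr1* (−0.66, adjusted p = 0.163) did not pass. The median of the 11 was −0.040 with the block, beside 0.011 over all genes tested.

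Of 6 regulators of receptor genes, 1 was higher and 1 lower with the block, beside 1.94% and 1.88% of all genes tested. *Ets2* went from 15.9 and 10.2 CPM to 63.99 and 65.1 CPM (log2 fold change 2.34, SE 0.20, adjusted p = 0.0107), and *Cebpa*, a myeloid factor needed for granulocytes, went from 43.9 and 74.3 CPM to 23.98 and 41.4 CPM (−0.86, SE 0.12, adjusted p = 0.0292). *Cebpb* (0.32, adjusted p = 0.199) and *Runx1* (−0.34, adjusted p = 0.188) did not pass. With treatment only, the adjusted p of *Ets2* was 0.161 and that of *Cebpa* was 0.676.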

How the data were processed

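Smart-seq2 libraries were made from single BMDMs, from 2 mice under 2 treatments, on 4 plates. Mouse, treatment, plate and well come from the sample labels. Per the paper, the authors mapped paired 50-base reads to mm10 using gsnap, took gene models from Ensembl 98, and assigned uniquely mapped fragments to genes with featureCounts 1.6.3. The deposited table holds counts of fragments per gene and well, whole numbers that were not normalized, counted without regard to strand, and including PCR copies. Its 92 spike-in rows were left out of totals. A further 8 columns carry names found in no label and were left unused, and 4 samples whose labels give no mouse entered no comparison.

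On each plate, a well was dropped if its log total or log number of genes fell short of the plate median by over 3 median absolute deviations, or the mitochondrial or spike-in share exceeded it by as much, which kept 1386 of 1524 wells holding 4607 to 6122892 fragments before the filter. No doublet caller was run, since cells were sorted singly. Sums of counts over the cells of a mouse and treatment were compared in edgeR 4.0.16 in R 4.3.3 (quasi-likelihood test, TMM, Benjamini-Hochberg adjustment over all 17034 genes tested, threshold 0.05) for genes seen in 5% or more of either treatment's cells that also passed filterByExpr. SE is the log2 fold change over the root of F. CPM of sums use TMM factors unless said otherwise, and 0.5 CPM was added for fold changes per plate. The test was first checked on simulated data with known changes by treatment. These data held no difference between mice, so the check does not cover counts in which the mice differ.

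Treatment was the only term of the main test. The mouse as a block was the second fit, and the mouse numbers pair the samples: both treatments of a number come from the same animal and plates, and, across genes, how they departed from the mean of their treatment correlated with r = 0.562. Whether the animal, the plates or the experiment gave this correlation was not tested. Other alternatives were DESeq2 1.42.0, scaling by library size, testing without a gene filter, limma 3.58.1 on log2(mean CPM per cell + 1), fixed or no cell filters, plate sums, adjoining rows, and each sum left out. A lone remaining sum of a treatment is taken to vary as the other treatment does. The block combined with another choice and the interaction of mouse and treatment, fitted on plate sums, were added after seeing the data. So was the removal of cells rich in granulocyte transcripts.

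Shares and correlations use cells thinned to the 10th percentile of totals. Scores of cell states are means of standardized log2 counts. Genes named beside the members come from lists of ligands, partner receptors, JAK-STAT, CSF1R signalling and regulators: those of the first 3 kinds that passed the filter, and from the others the 2 highest and 2 lowest fold changes of the same sign in both mice plus any called in either fit, with 4 TNF-responsive genes as checks. Members and lists were chosen with earlier results of these data known. Upstream sequences are those of RefSeq, cut to the 250 bases before the start.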

Additional observations from a re-analysis of the deposited data

Results flagged for a closer look

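The labels of 3 wells give the treatment, IL4+IL13, without a mouse. These wells entered no comparison and held receptor fragments above 3, the most that a count of 0 allows. They lay on plates 3, 4 and 5 and held 279461, 354874 and 87198 fragments and 10802, 11121 and 8314 detected genes. Kept cells with IL4+IL13 held a median of 7708 genes and 477871 fragments, so these wells held more genes in fewer fragments. Whether each held a single cell was not tested. *Csf1r* passed the level of 3 fragments in 3 of 3 wells (132, 309 and 123 fragments), as did *Csf2ra* (22, 29 and 9), *Csf2rb* (133, 89 and 14), *Csf2rb2* (39, 108 and 45), *Il6st* (36, 34 and 35) and *Il6ra* (5, 37 and 6). *Csf3r* passed it in 2 wells (2, 9 and 23 fragments) and *Lifr* in 1 (0, 18 and 0). Among the 4 plates of each treatment, none of the 16 sets of receptor levels held a plate far from the others, where chance gives about 1 in 20. Each set joined plates of both mice, so a gap between the mice widened its range and could hide such a plate. For no receptor did the interaction of mouse and treatment on plate sums pass the threshold. With 1 animal on each side, that test cannot decide whether the mice differ.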

How the results depend on the processing

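The count of genes called with treatment only was 1. It became 651 with the mouse as a replicate block, 598 with DESeq2, 1772 on 8 plate sums with the block and 2 in adjoining rows, and ran from 4 to 30 with 1 sum left out (30 without the TNF sum of mouse 1). The count of members called, 0, became 5 with the block, 1 with DESeq2 and 7 on plate sums with the block, and stayed at 0 with each sum left out. Under the block, the 651 genes became 1772 on plate sums, 2119 with DESeq2, 312 without a gene filter and 31 in adjoining rows. The 5 members became 3 with library size in place of TMM (*Csf3r*, *Lifr* and *Il6ra*), 2 without a gene filter (*Lifr* and *Il6ra*) and 0 in adjoining rows. Adjoining rows hold fewer cells, and the cause of these changes, those in adjoining rows included, was not tested. Library size in place of TMM moved the split of blocked calls from 331 higher and 320 lower to 269 higher and 428 lower, with a median over all genes of −0.08. The block changed no call from passed to not passed. Over 12 fits with the block, *Lifr* and *Il6ra* were called in 11, *Csf3r* in 10, *Csf2ra* and *Csf2rb2* in 9, *Csf2rb* in 5, *Il6st* in 2 and *Csf1r* in 0, and no member changed sign. All these fits reuse the same 2 mice. Those on plate sums, with or without a plate left out, also treat plates of 1 mouse as replicates. *Csf2rb* was called on plate sums (edgeR adjusted p = 0.00653) but not on the 4 sums (adjusted p = 0.0659). 

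Without the block, signs turned for *Csf1r* (−0.080 to 0.54 over the sums left out, lowest without the IL4+IL13 sum of mouse 1) and *Il6st* (−0.75 to 0.047, highest without that of mouse 2). Leaving out the IL4+IL13 sum of mouse 1 gave log2 fold changes of 0.42 for *Csf2rb*, 0.35 for *Csf2rb2* and 0.59 for *Csf3r*, and leaving out that of mouse 2 gave 1.82, 1.39 and 2.24. *Il6ra* ran from −1.43 to −0.40, *Csf1* from 0.17 to 2.84, *Jak2* from 0.35 to 1.52, *Rhbdf2* from 0.46 to 1.07, *Cebpa* from −1.30 to −0.42 and *Retnla* from −5.40 to −2.84. Signs also turned for *Osm* (−0.0062 with limma, −0.50 to 0.88 with a sum left out), *Ebi3* (0.011 with the fixed and 0.00082 with no cell filter, −0.17 to 0.053 with a sum left out), *Stat3* (−0.64 to 0.15), *Ccnd1* (−3.22 to 0.35) and *Cebpb* (−0.11 to 0.80) with a sum left out, and *Stat5b* (0.017 in adjoining rows). Of 40 shares recomputed, 35 moved by less than 1 SD, and the 5 that moved did so with at least 5 fragments required (for *Lifr*, to a difference of −23.5 points). With 2 mice, treatment-only tests resolve only large changes.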
